A study of Mus musculus with 16 samples.

Results

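Gene expression in the brain of newborn Ali35 mice was compared with that of wild-type pups on one-colour bead arrays. The comparison used 8 of the 16 arrays of the study, chosen by their labels: 4 of Ali35 brain and 4 of wild-type brain, each from 1 mouse of the strain C3H/HeJ aged 3 days. The Ali35 line carries a mutation in the gene Shc2. The labels gave neither the base change nor whether the mutant pups had 1 or 2 mutated copies, and they gave no sex, litter, chip or batch. The other 8 arrays held bone of Ali35 and wild-type mice of the same strain, aged 120 days. They are used below only to test where a change in brain differed from that in bone, so tissue and age changed together in that test. Nothing in the labels says whether the 4 pups of a group were littermates, and the p-values measure the spread between these pups. Whole brain is a mixture of cell types, and fewer cells of a type and less RNA per cell cannot be told apart.

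Shc2 encodes an adaptor of the Shc family, proteins that bind phosphorylated tyrosines of activated receptor tyrosine kinases and pass the signal through Grb2 and Sos to Ras and ERK. In neurons, Shc adaptors act downstream of the neurotrophin receptors. At 3 days of age the mouse brain is still building itself: cortical neurons extend axons and dendrites, astrocytes and oligodendrocyte precursors multiply, and myelin is only starting to form. A bead array carries a short DNA probe for each transcript and often several probes for a gene, which can lie in different exons or ends of its transcripts. Probes of one gene therefore give separate readings of it.

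The deposited intensity, a linear brightness with background subtracted, reached 16 on about 42.3% of the 25697 probes of each brain array. Values below 16 were set to 16, and probes at 16 or more on at least 4 of the 8 brain arrays were tested, which left 10922 probes of 7844 genes. Of these, 398 were called at an adjusted p under 0.05 (limma), which is 3.64% of the probes tested, with 208 higher in Ali35 (1.90%) and 190 lower (1.74%). The median size of a called change was 1.50-fold, and changes of 2-fold or more were found on 11 probes that rose and 6 that fell. The median log2 change over all tested probes was 0.01. Brain arrays of a group correlated at r = 0.983 to 0.992 across probes and arrays of different groups at 0.978 to 0.985. No probe carried the name Shc2, so the mutated gene's own transcript was not analysed here. The Y-linked gene Eif2s3y read 85.8 to 184 on the 8 brain arrays and both Xist probes lay below 16 on each of them, so Eif2s3y and Xist set no brain array apart. The Y-linked genes Kdm5d and Uty read around or below 16. Kdm5d read 15.3 to 19.4 in wild type and 4.82 to 14.4 in Ali35, and Uty 15.3 to 18.9 and 6.6 to 13.9.

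Of the 1867 genes with at least 2 tested probes, 158 had a called probe, and for 13 of these at least 2 probes were called in the same direction. No gene had probes called in opposite directions. The 10 genes that rose on at least 2 probes were Adam22, Akap9, Btbd3, Mrpl1, Pde1a, R3hdm1, Rnf182, Sox5, Usp1 and Zfp326, and the 3 that fell were Cdca3, Copg1 and Slc4a3. For Mrpl1, 1 of the 2 probes passed the filter only through its Ali35 arrays. For R3hdm1, Rnf182, Zfp326, Btbd3 and Cdca3, 1 of the probes also kept its call whichever of the 8 arrays was left out. The second called probe of Zfp326 kept its call in 5 of these 8 reduced fits, and that of each of the other 4 genes in 1 of 8. The promoters of the 5 are shown here because 1 probe of each held throughout and another was called with all arrays, from 250 bases before to 50 bases after the start of the gene (RefSeq, GRCm38.p6, all on the plus strand). They lie at chr1:128103056-128103355, chr13:43615547-43615846, chr5:105876318-105876617, chr2:138256334-138256633 and chr6:124829926-124830225. Capitals mark matches, on either strand, to the CCAAT box (CCAAT), the GC box (GGGCGG) and the CHR element of cell cycle genes (TTTGAA), the only motifs of those searched that were found in them.
R3hdm1: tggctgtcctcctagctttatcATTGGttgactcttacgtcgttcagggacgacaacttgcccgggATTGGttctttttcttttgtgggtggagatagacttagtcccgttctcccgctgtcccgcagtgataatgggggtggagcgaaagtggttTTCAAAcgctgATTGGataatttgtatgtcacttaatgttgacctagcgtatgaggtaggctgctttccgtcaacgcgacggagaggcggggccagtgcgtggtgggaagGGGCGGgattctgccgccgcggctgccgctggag
Rnf182: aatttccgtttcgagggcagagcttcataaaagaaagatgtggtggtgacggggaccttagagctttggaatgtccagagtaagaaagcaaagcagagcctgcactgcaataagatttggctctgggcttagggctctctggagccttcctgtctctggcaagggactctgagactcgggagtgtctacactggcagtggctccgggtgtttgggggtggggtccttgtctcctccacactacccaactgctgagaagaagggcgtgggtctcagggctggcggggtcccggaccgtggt
Zfp326: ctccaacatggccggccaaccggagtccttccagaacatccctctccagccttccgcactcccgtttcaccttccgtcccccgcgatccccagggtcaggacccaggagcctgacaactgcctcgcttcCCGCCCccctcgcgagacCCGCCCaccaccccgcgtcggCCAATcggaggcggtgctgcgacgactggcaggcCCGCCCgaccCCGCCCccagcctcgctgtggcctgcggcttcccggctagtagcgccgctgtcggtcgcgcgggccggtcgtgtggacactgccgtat
Btbd3: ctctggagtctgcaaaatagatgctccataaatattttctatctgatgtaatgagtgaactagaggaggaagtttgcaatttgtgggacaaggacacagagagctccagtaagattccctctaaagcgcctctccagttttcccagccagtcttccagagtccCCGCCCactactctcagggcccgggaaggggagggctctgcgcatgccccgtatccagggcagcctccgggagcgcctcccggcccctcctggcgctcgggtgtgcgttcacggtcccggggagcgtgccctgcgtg
Cdca3: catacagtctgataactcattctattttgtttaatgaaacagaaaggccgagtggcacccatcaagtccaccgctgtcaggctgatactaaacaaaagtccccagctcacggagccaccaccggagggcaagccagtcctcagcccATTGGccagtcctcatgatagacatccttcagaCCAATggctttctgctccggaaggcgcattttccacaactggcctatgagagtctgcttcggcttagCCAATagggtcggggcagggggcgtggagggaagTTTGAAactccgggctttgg

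R3hdm1 encodes a protein with an RNA-binding R3H domain and carries the microRNA miR-128-1 in an intron. Its brighter probe read 52.3, 56.3, 43.1 and 39.3 on wild-type replicates 1 to 4 and 94.4, 133, 122 and 106 on Ali35 replicates 1 to 4. All 4 Ali35 arrays lay above all 4 wild-type arrays, and the change was 2.39-fold (log2 1.25 ± 0.15 SE, adjusted p = 0.00754, limma). The dimmer probe rose 1.72-fold, from 14.4 to 28.9 to 30.4 to 41, again without overlap, although 1 of its wild-type values lay below 16. Its promoter, the first printed above, held 3 CCAAT boxes, 1 GC box and 1 CHR element.

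Rnf182 encodes a RING-type ubiquitin ligase. Its probe of higher intensity read 111, 111, 141 and 135 on the wild-type arrays and 202, 203, 197 and 215 on the Ali35 arrays. The 4 mutant values lay within a narrow band above all wild-type values, 1.65-fold higher (log2 0.72 ± 0.11 SE, adjusted p = 0.0148). The other probe rose 1.37-fold (adjusted p = 0.0454), and with 1 array left out its adjusted p reached 0.123. The Rnf182 promoter held none of the motifs searched, which says only that these letters are not in this window.

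Zfp326 encodes a zinc finger protein that in human cells couples transcript elongation to splicing. The probe with the larger change read 201, 188, 164 and 124 in wild type and 334, 347, 343 and 314 in Ali35, a 2.01-fold rise (log2 1.01 ± 0.14 SE, adjusted p = 0.0144). A second probe rose 1.92-fold (log2 0.94 ± 0.17). On both, wild-type replicate 4 was the lowest array and the groups were apart. The third Zfp326 probe read 241 to 278 in wild type and 262 to 327 in Ali35, overlapped between the groups and was not called (log2 0.15 ± 0.10, adjusted p = 0.397). Its change differed from that of the first probe by -0.86 ± 0.19 on the log2 scale (adjusted p = 0.0424, limma), so the 3 probes did not give 1 change of the gene. The gene's promoter is the richest of the 5 in GC boxes, with 4, and in CpG, with 34 in 300 bases, against 9 in that of Rnf182.

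Btbd3 encodes a BTB-domain protein that steers the dendrites of cortical neurons in the mouse. One probe read 96.7, 87.3, 114 and 86.7 in wild type and 156, 167, 193 and 158 in Ali35, a 1.75-fold rise (log2 0.81 ± 0.12 SE, adjusted p = 0.0147). The other read 86.3, 78, 105 and 79.4 in wild type and 119.6, 127, 131 and 138 in Ali35, a rise of 1.49-fold. Replicate 3 was the highest wild-type array on both probes and still lay below every Ali35 array.

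Cdca3, which encodes a trigger of entry into mitosis, fell on both of its probes. The brighter probe read 91.9, 87.3, 81.8 and 98.4 in wild type and 73.7, 54.4, 57.7 and 47.7 in Ali35, a 1.56-fold fall (log2 -0.64 ± 0.13 SE, adjusted p = 0.0371). The dimmer probe, at 26.5 to 32.1 and 13 to 20.4, fell 1.65-fold, with 2 Ali35 values below 16. Ali35 replicate 1 was the nearest mutant array to the wild-type arrays on both. The Cdca3 promoter held 3 CCAAT boxes and a CHR element after the gene start. That of R3hdm1, which rose, also held 3 CCAAT boxes and a CHR element, there before the gene start.

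**Figure D1:**
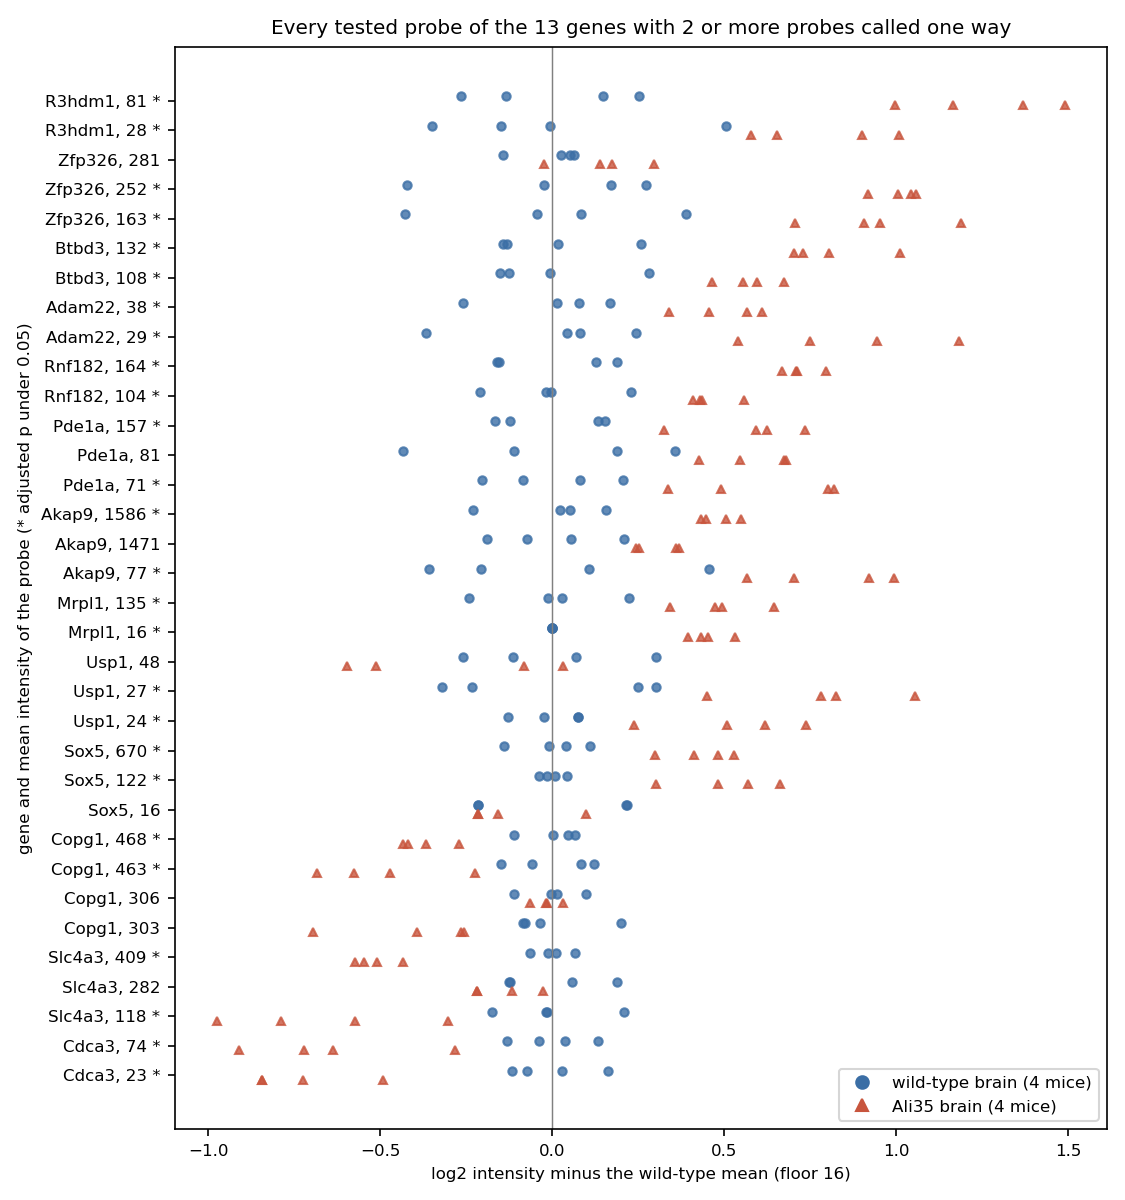
Each row is 1 tested probe of the 13 genes with at least 2 probes called in one direction, named with the probe's mean intensity over the 8 arrays. The horizontal axis gives log2 intensity (floor 16) minus the wild-type mean, with 1 circle per wild-type array and 1 triangle per Ali35 array, and an asterisk marks probes with an adjusted p under 0.05. The starred probes show the triangles on one side of all circles, which their calling favours. The groups are also apart on 1 unstarred probe each of Akap9, Pde1a and Copg1. They are mixed on the other unstarred probes, that of Zfp326 among them.

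Among the other genes that rose on at least 2 probes, Sox5, a transcription factor that guides the differentiation of deep-layer cortical neurons, read 517, 615, 586 and 566 in wild type and 822, 759, 797 and 701 in Ali35 on its brightest probe. That was a 1.35-fold rise, and a second probe rose 1.42-fold from 101 ± 2.37 to 143 ± 14.9 (SD, n = 4). The third Sox5 probe, at 17 and 15.5, lay at the floor and was not called. Akap9, a scaffold that holds protein kinase A at the Golgi and centrosome, read 1125, 1469.8, 1368 and 1339 in wild type and 1929, 1873, 1799 and 1781 in Ali35 on its brightest probe. It rose 1.40-fold on that probe and 1.74-fold on a dim one, while the third, at 1319 and 1623, had log2 0.31 ± 0.10 and was not called (adjusted p = 0.117).

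Adam22, the synaptic receptor of the secreted protein Lgi1, rose on both probes, by 1.81-fold and 1.41-fold, from means of 20.6 and 31.5. Pde1a, a phosphodiesterase switched on by calcium and calmodulin, had 3 tested probes with log2 changes of 0.57, 0.61 and 0.58, of which 2 were called and the third had an adjusted p of 0.0693. The groups did not overlap on any of the 3. Mrpl1, a protein of the mitochondrial ribosome, read 94.8, 111, 114 and 131 in wild type and 156, 158, 175 and 142 in Ali35 on its brighter probe, a 1.40-fold rise. Its dim probe read 10.3 to 11.7 in wild type, below 16 on all 4 arrays, and 21.1 to 23.1 in Ali35, so it was at least 1.37-fold higher. The dim probe passed the filter only through its Ali35 arrays, so its call is no independent support for the brighter probe. Usp1, a deubiquitinase of DNA repair, rose on 2 dim probes (log2 0.78 ± 0.17 and 0.53 ± 0.12), whereas the third and brightest probe read 43.5 to 64.2 in wild type and 34.4 to 53.2 in Ali35 (log2 -0.29 ± 0.17, adjusted p = 0.329), and differed from the first by -1.07 ± 0.21 on the log2 scale (adjusted p = 0.0349, limma).

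The other genes that fell on at least 2 probes were Slc4a3, a chloride and bicarbonate exchanger of brain and heart, and Copg1, a subunit of the COPI vesicle coat. Slc4a3 read 459.9, 504, 485 and 477 in wild type and 329, 356, 338 and 323 in Ali35, a 1.43-fold fall (log2 -0.52 ± 0.08 SE, adjusted p = 0.0189). A second Slc4a3 probe fell 1.58-fold, and the third overlapped between the groups (log2 -0.15 ± 0.10). Copg1 had 4 tested probes, with log2 changes of -0.49 and -0.37, which were called, and -0.40 and -0.02, which were not. The last of these read 285 to 329 in wild type and 294 to 314 in Ali35, so the 4 Copg1 probes did not give 1 size.

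Calls that held with each array left out came to 33 probes, 24 higher and 9 lower, of the 398 called. The 16 probes that held best were named by rule, 8 in each direction. Among the higher ones, Flrt2, a membrane protein that repels or holds neurons and axons through Unc5 receptors and latrophilins, read 38.4, 45.2, 44.5 and 43.2 in wild type and 76.2, 95.9, 91.7 and 78.6 in Ali35. The mutant arrays were all well above the wild-type arrays, 1.99-fold higher, with an adjusted p between 0.00754 with all arrays and 0.0309 at most with 1 left out. Stx3, a SNARE protein of vesicle fusion, read 20.6, 20.9, 20.4 and 20.6 in wild type and 31.6, 33.1, 38.1 and 36.6 in Ali35, a 1.68-fold rise. Tbc1d20, which switches off Rab GTPases of the early secretory pathway, rose 1.76-fold from 183 ± 10.6 to 322 ± 26.8 (SD, n = 4).

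Regulators of signalling and transcription were also among these 8. Cxxc4, an inhibitor of Wnt signalling that binds Dishevelled, read 151, 178, 157 and 169 in wild type and 297, 283, 269 and 306 in Ali35 (1.76-fold higher, log2 0.82 ± 0.09 SE, adjusted p = 0.00754). Its brighter second probe had log2 0.19 ± 0.10 and was not called (adjusted p = 0.299). The RNA helicase gene Ddx17 showed the same split between probes: a dim probe read 19.6, 14.5, 14.5 and 19.9 in wild type and 41.8, 43.5, 32.8 and 31 in Ali35 (2.07-fold higher), while a probe of mean intensity 4521 had log2 0.29 ± 0.10 and was not called. Palm2, a lipid-anchored protein of the paralemmin family, read 10.6, 9.44, 3.92 and 4.35 in wild type, all below 16, and 34.2, 26.5, 28 and 34.3 in Ali35, so it was at least 1.91-fold higher. Palm2 passed the filter only through its Ali35 arrays, and the floor left its wild-type group no spread, so its steadiness rests partly on these settings.

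Of the lower genes in this group, Lamtor2 has a role in signalling: it is a subunit of the Ragulator complex, which anchors mTORC1 and also MEK1 at lysosomes and late endosomes. It read 98.8, 105, 99.2 and 85.8 in wild type and 42.3, 43.7, 53.1 and 33.6 in Ali35. Every mutant array was below every wild-type array, and the fall was 2.28-fold (log2 -1.19 ± 0.14 SE, adjusted p = 0.00754). Transketolase, Tkt, which links the pentose phosphate pathway to glycolysis, read 850.2, 647, 653 and 539 in wild type and 297, 312, 346 and 409 in Ali35, a 1.96-fold fall. Wild-type replicate 1 was its highest array and Ali35 replicate 4 its highest mutant array, with no overlap. The other 2 tested Tkt probes had log2 changes of 0.12 and -0.20, neither of them called. The called probe differed from the first of these by -1.09 ± 0.20 on the log2 scale (adjusted p = 0.0349, limma), so the probes did not give 1 change of Tkt.

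Glrx2, a mitochondrial glutaredoxin, fell from 81.1 ± 5.09 to 45.9 ± 7.38 (SD, n = 4), 1.78-fold. B4galt3, a Golgi galactosyltransferase, read 397, 378, 386 and 369 in wild type and 239, 249, 274 and 235 in Ali35 (1.54-fold lower), while its second probe gave log2 -0.03 ± 0.09. Babam2, a member of the BRCA1-A DNA repair complex, fell 1.72-fold, Pheta1, which binds the phosphatase OCRL on endosomes, 1.76-fold, and Car14, a membrane-bound carbonic anhydrase, 1.65-fold. For none of these 7 single-probe calls with a second tested probe (Cxxc4, Ddx17, Mier1, B4galt3, Babam2, Glrx2 and Tkt) was another probe called.

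Further probes that held with each array left out are named here after their values were seen. They included the chromatin readers Cbx5, the heterochromatin protein HP1 alpha (log2 0.68 ± 0.08), and Pcgf5, a Polycomb subunit (0.64 ± 0.09). The cell adhesion gene Dscam rose by log2 0.76 ± 0.11 on one dim probe and had -0.26 ± 0.20 on another, which was not called. Fam20b, a kinase that phosphorylates xylose in proteoglycan synthesis, rose 1.97-fold and the membrane protein gene Megf9 1.97-fold.

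The brightest called probes gave smaller changes. Actb, cytoplasmic actin, read 7404, 8586, 6882 and 7018 in wild type and 11874, 10479, 9693 and 10057 in Ali35 on the called probe, 1.41-fold higher with all Ali35 arrays above the wild-type arrays. Its other 4 tested probes had log2 changes of 0.07, 0.03, -0.18 and -0.20, none of them called, so the 5 probes did not show 1 change of actin. Uqcr10, a subunit of respiratory complex III, read 3469, 4072, 3401 and 3754 in wild type and 5077, 4665, 4850.5 and 4717 in Ali35 (1.32-fold higher, log2 0.40 ± 0.09), with 0.26 ± 0.10 on an equally bright probe that was not called. The called probe of Plpp3, a lipid phosphatase of the cell surface, was 1.38-fold higher, from 1685 ± 88.8 to 2327 ± 185 (SD, n = 4). Its dim second probe had log2 -0.49 ± 0.23 and was not called, and the 2 changes differed by 0.96 ± 0.23 on the log2 scale (adjusted p = 0.0492, limma). Tmem223 was 1.33-fold higher on the called probe and had log2 0.25 ± 0.10 on another, which was not called.

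Of the bright probes that fell, Calm3, 1 of the calmodulin genes, read 6036, 6075, 5766 and 5833 in wild type and 4081, 4006, 4709.8 and 4476 in Ali35, a 1.38-fold fall (log2 -0.46 ± 0.09 SE, adjusted p = 0.0296). Sult4a1, a sulfotransferase-like protein of neurons, read 1972, 1854, 1887 and 1979.7 in wild type and 1007, 1443, 1428 and 1369 in Ali35, where replicate 1 lay apart below the other 3. Prkar1a, a regulatory subunit of protein kinase A, fell 1.38-fold. Rps21, a protein of the small ribosomal subunit, read 2968, 2351, 2279 and 2136 in wild type and 1141, 1291, 1477 and 2024 in Ali35 (log2 -0.74 ± 0.17), with Ali35 replicate 4 close to the lowest wild-type array. With 1 array left out, these 8 bright probes lost their calls in most cases: of 8 reduced fits, Plpp3 and Calm3 were called in 2, Actb, Uqcr10, Rps21 and Prkar1a in 1, and Tmem223 and Sult4a1 in 0. Their highest adjusted p lay between 0.0898 and 0.132.

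For some of the largest called changes, other probes of the gene gave smaller or opposite changes. Golga2, the Golgi matrix protein GM130, read 70.1, 78.7, 31.7 and 37.4 in wild type and 189.7, 125, 112 and 99.97 in Ali35 (2.53-fold higher), while 3 other probes had -0.67, -0.30 and -0.10 on the log2 scale, none of them called. Bach1, a repressor of haem oxygenase that haem itself removes from DNA, had 1 tested probe, which read 49.7, 57, 41.5 and 22.8 in wild type and 107, 118, 97.6 and 86.2 in Ali35, and wild-type replicate 4 was the lowest array. Mllt3, a reader of acetylated histones in the super elongation complex, read 74.2, 76.3, 60.5 and 41.9 in wild type and 156, 152, 147 and 141 in Ali35, with an almost constant mutant group, and its dim second probe had log2 0.43 ± 0.19 (not called). Ptpre, a tyrosine phosphatase, read 488, 247, 189 and 272 in wild type and 66.1, 125, 65.7 and 135 in Ali35, the widest spread among them, while its other probe had log2 0.26 ± 0.09 (not called). Klhdc3, a substrate receptor of a ubiquitin ligase, fell 2.25-fold from 106 ± 13.8 to 48.6 ± 13.5 (SD, n = 4).

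Gene lists of cell types, brain regions and pathways were described by the brightest probe of each gene. The lists were chosen with earlier results of these data known, so a list's count of calls can reflect that choice and gives no independent support. By that probe 270 of 7844 genes were called (3.44%), 153 higher and 117 lower, and the median log2 change of all genes was 0.02. An unadjusted p under 0.05 (limma) was reached by 1859 of the 7844 genes, the share against which each list's count has to be held. Chromatin regulators held 6 called higher and 1 called lower of 31 tested, with a median of 0.09. Beside Mllt3, Arid5b, a cofactor of the demethylase Phf2, read 27.4, 17.8, 16.2 and 16.6 in wild type and 40.9, 37.3, 43.8 and 41.5 in Ali35 (2.15-fold higher, adjusted p = 0.0148). Ezh2, the Polycomb methyltransferase, read 117, 114, 93.6 and 83.3 in wild type and 161, 179.8, 172 and 160.3 in Ali35 (1.67-fold higher), while Eed, its partner in the same complex, was called lower (log2 -0.69 ± 0.16, adjusted p = 0.0432). The histone methyltransferase Nsd1 read 11.5, 11.9, 15.2 and 2.46 in wild type, all below 16, and 33.4, 45.5, 22 and 30.5 in Ali35, so it was at least 1.99-fold higher. Nsd1 passed the filter only through its Ali35 arrays, so its call adds no support to the list's count. The acetyltransferase Ep300 rose by log2 0.59 ± 0.12 and the demethylase Kdm6a by 0.46 ± 0.11. With 1 array left out the list held 2 to 5 members called higher, fewest without wild-type replicate 4, and 0 or 1 called lower, Mllt3 and Arid5b being called each time.

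Genes of the hypothalamus held 3 called higher of 11 tested and none lower (5 with an unadjusted p under 0.05), with a median of 0.28. Lhx1, a LIM homeodomain factor, read 54.5, 56, 55 and 56.5 in wild type and 101, 73.5, 78.5 and 70.3 in Ali35, with replicate 1 the highest array. Pmch, the precursor of melanin-concentrating hormone, read 139, 187, 152 and 198 and 234, 237, 227 and 264, and the transcription factor Isl1 read 153, 187, 193 and 191 and 247, 227, 242 and 278. All 3 were just inside the threshold, with adjusted p values of 0.0419, 0.0489 and 0.0465. Avp, vasopressin, read 18.9, 30.0, 41.4 and 34.3 in wild type and 135, 95.8, 53.8 and 43.7 in Ali35 (log2 1.31 ± 0.35, adjusted p = 0.0653), and oxytocin, Oxt, 30.5, 40.2, 38.8 and 38.5 and 59, 71.1, 42.3 and 48.1 (adjusted p = 0.0817), so neither was called. For Avp and Oxt, Ali35 replicates 1 and 2 were the 2 highest of the 8 arrays. With 1 array left out, no member of the list was called in 7 of 8 cases. Without Ali35 replicate 4, Lhx1 and Avp were called (adjusted p = 0.0416 and 0.0441, limma). Pmch and Isl1 lost their calls whichever array was left out. In the list of striatal genes, 1 of 8 was called, Isl1 again, and of 9 genes of cortex and hippocampus and 7 of cerebellum none was called (2 and 1 with an unadjusted p under 0.05).

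The 2 tested genes of the hindbrain list varied from array to array. Hoxb5, a Hox gene of the caudal hindbrain and spinal cord, read 163, 138, 74.1 and 205 in wild type and 61.5, 0.374, 27 and 208 in Ali35. Hoxa5 read 147, 153, 94.8 and 314 and 137, -0.509, 54.3 and 402. Both genes were near 0 on Ali35 replicate 2 and highest on Ali35 replicate 4, and neither was called (adjusted p = 0.208 and 0.508). How far the caudal end of the brain sample bears on the other genes was not tested.

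Enzymes of glycolysis and the pentose phosphate pathway held 2 called lower and none higher of 17 tested. The median was -0.22 and 13 of the 17 values were negative, with 6 at an unadjusted p under 0.05. Pgls, the lactonase of the pentose phosphate pathway, joined Tkt, reading 608, 513, 499 and 553 in wild type and 377, 366, 430.3 and 433 in Ali35 (1.35-fold lower, adjusted p = 0.0465). Aldoa, an aldolase, read 740.2, 706, 568 and 643 and 394, 526, 552 and 336 without overlap and was not called (log2 -0.58 ± 0.16, adjusted p = 0.0772). The triose phosphate isomerase gene Tpi1 had 1 dimmer probe called lower (-0.84 ± 0.17), but its brightest probe, of mean intensity 2564, had 0.06 ± 0.08. With any 1 array left out the list's median stayed between -0.25 and -0.18, and 1 gene, Tkt, was called, on the probe that its 2 other probes did not match.

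Lists of the larger machines of the cell held 0 to 2 calls each, against 3.44% over all genes. Of 66 subunits of the respiratory chain and ATP synthase, Uqcr10 was called higher and the complex I subunit Ndufb3 lower, reading 466, 402, 407 and 422 in wild type and 234, 283, 289 and 294 in Ali35. Of 52 cytosolic ribosomal proteins, Rps21 was the one called, and of 26 proteasome genes Psma7 was called higher (1.32-fold) and Psmd8 lower (1.48-fold). The medians of these lists were 0.03, 0.03 and -0.02. Of 27 genes of nuclear RNA processing, the splicing factor Srsf5 fell from 1068 ± 79.2 to 731 ± 43.8 (SD, n = 4, 1.46-fold). Of 17 genes of cell division, Nusap1, a spindle protein, was called lower (log2 -0.57 ± 0.12), 14 of the 17 values were negative, and the median was -0.13. Of 15 mTOR pathway genes only Lamtor2 was called, and of 16 genes of cholesterol synthesis none was (4 with an unadjusted p under 0.05). With 1 array left out, Ndufb3 and Srsf5 were called in 6 of 8 cases, Nusap1, Uqcr10 and Rps21 in 1, and Psma7 and Psmd8 in 0.

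The lists of signalling next to Shc2 held no called member, against 3.44% over all genes, a share at which lists this short often hold none. Of 10 tested Shc adaptors and partners none was called by limma, and 3 had an unadjusted p under 0.05. Rasa1, a GTPase-activating protein of Ras, read 431, 448, 468 and 489 in wild type and 553, 600.4, 559.7 and 659 in Ali35, with the groups apart and an adjusted p of 0.0577 (log2 0.37 ± 0.09). Frs3, an adaptor of fibroblast growth factor receptors, had -0.58 ± 0.19, and the insulin receptor substrate Irs2 0.34 ± 0.14. Shc1 had 0.15 ± 0.10, while Shc3 and Shc4 were too dim to test. None of 5 neurotrophin genes and receptors was called (Ntrk2 -0.27 ± 0.12, 1 with an unadjusted p under 0.05), and none of 14 Ras-ERK feedback and immediate early genes (2 under 0.05). Over all genes, 1859 of 7844 had an unadjusted p under 0.05.

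The lists of guidance, MEF2, synaptic and imprinted genes held 0 to 2 calls each, against the same 3.44%. Of 10 tested genes of the FLRT, Unc5, latrophilin, Slit and Robo families, Flrt2 was called, and the partners named next in p were the ligand Slit2 (0.38 ± 0.10), the latrophilin Adgrl3 (0.37 ± 0.10) and the latrophilin Adgrl1 (-0.59 ± 0.18), which were not. A dim probe of Flrt3 was called higher (0.56 ± 0.12) while its brightest had 0.19 ± 0.10. Of 7 genes of the MEF2 family and its activity targets, Mef2a, a transcription factor of neurons and muscle, read 33.6, 28.3, 34.5 and 32.8 in wild type and 39.9, 53.6, 46.4 and 46.7 in Ali35 (log2 0.53 ± 0.11, adjusted p = 0.0395). Mef2c had 3 tested probes, with 1.18 ± 0.20 (called), 0.43 ± 0.11 on the brightest (adjusted p = 0.0622) and 0.29 ± 0.20. Of 22 genes of synaptic vesicles and receptors none was called (4 with an unadjusted p under 0.05, median -0.11). Among 11 imprinted growth genes, Peg3, a zinc finger gene expressed from the paternal copy, read 79.1, 52.2, 55.8 and 43.4 in wild type and 93, 94.9, 83.7 and 102 in Ali35 and was called higher, and 1 probe of Mest, also a paternally expressed gene, was called lower (log2 -1.08 ± 0.23). The other Mest probe had 0.13 ± 0.14, and the 2 differed by -1.21 ± 0.28 on the log2 scale (adjusted p = 0.0462, limma). Mef2a, Peg3 and this Mest probe were each called in 1 of 8 fits with 1 array left out.

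**Figure D2:**
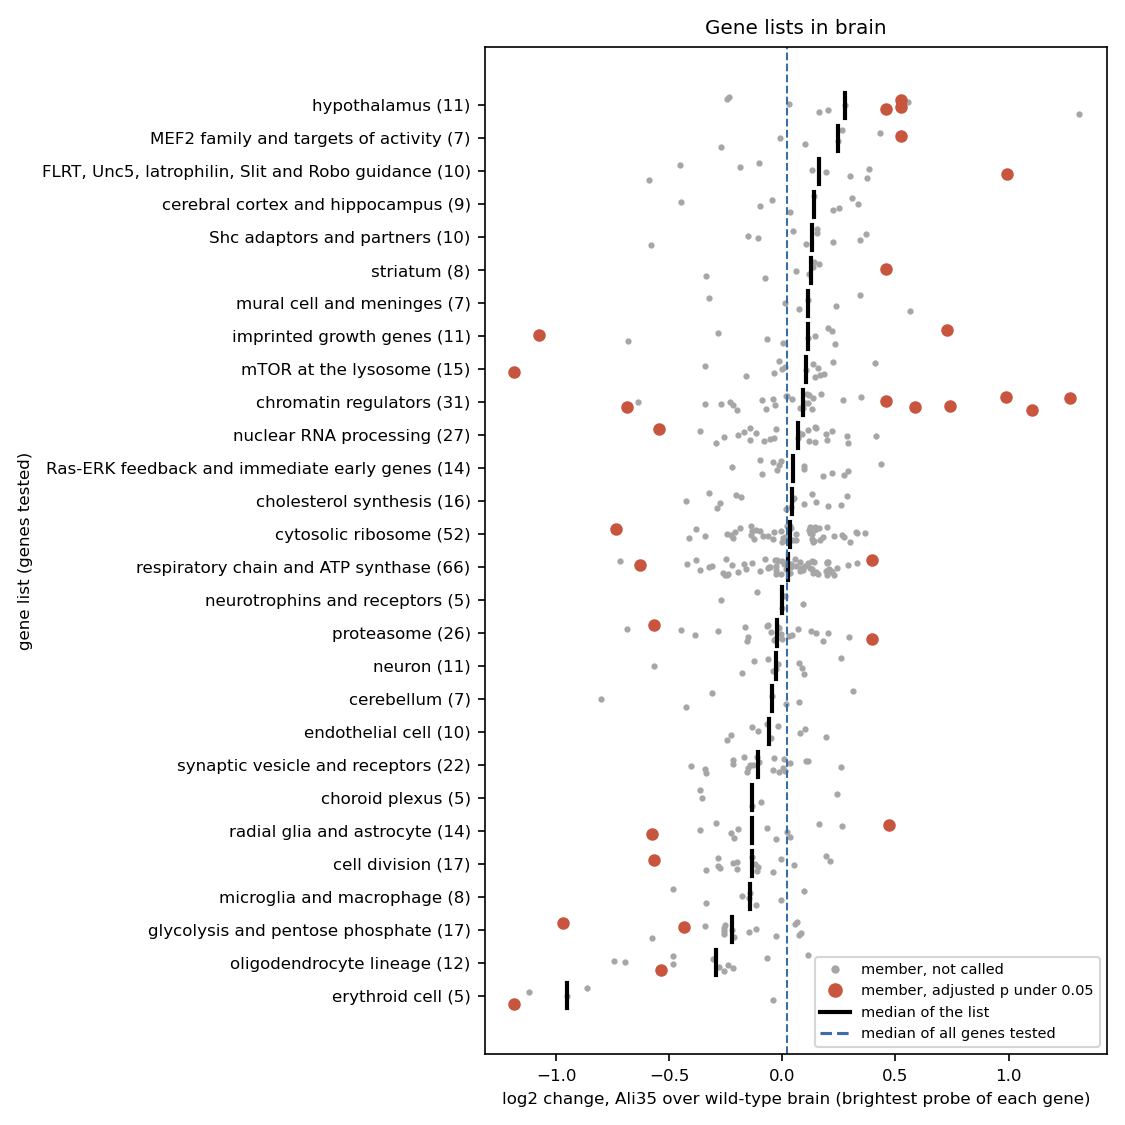
Each row is a gene list with at least 5 tested genes, ordered by its median. The horizontal axis gives the log2 change of each member's brightest probe, Ali35 over wild-type brain, with large coloured points for members with an adjusted p under 0.05 and grey points for the others. Black bars are list medians and the dashed line is the median of all genes tested, 0.02. The erythroid list lies lowest, at -0.95, and the hypothalamus list highest, at 0.28.

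Markers of the cell types in a whole brain sample moved as follows. Of 12 oligodendrocyte lineage genes, Cnp, an enzyme of myelin-forming cells, read 128, 171, 143 and 156 in wild type and 96.4, 87.4, 113 and 115 in Ali35 and was called lower, and 11 of the 12 values were negative (median -0.29, between -0.36 and -0.22 with 1 array left out). The call of Cnp was lost whichever array was left out (adjusted p = 0.052 to 0.114). Mbp, myelin basic protein, read 829, 648, 830.4 and 1055 and 585, 287, 590.0 and 692 and was not called (adjusted p = 0.137), nor was Pdgfra, the receptor of oligodendrocyte precursors, at 267 to 316 and 173 to 246 (adjusted p = 0.0537). The summed intensity of the list was 4617 to 5498 in wild type and 3720 to 4866 in Ali35, which overlap.

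Of 14 radial glia and astrocyte genes, Sox2, a stem cell factor, was called higher (62.8 to 85.5 in wild type and 96.9 to 108 in Ali35) and Gfap, the filament of mature astrocytes, lower (32.5 to 48.4 and 23.2 to 30.4). Both calls were lost whichever array was left out, with adjusted p values of 0.0503 to 0.115 for Sox2 and 0.06 to 0.123 for Gfap. Of the 14 values 9 were negative and 5 positive, with a median of -0.13. The list's summed intensity did not follow that median, at 8030 to 8447 in wild type and 8275 to 9017 in Ali35, which overlap. Aldh1l1, also in this list, had 1 dimmer probe called lower (log2 -0.70, adjusted p = 0.0345, limma), and its other 2 probes had -0.25 and -0.03 and were not called. None of 11 neuron genes was called by its brightest probe (2 with an unadjusted p under 0.05), and their summed intensity was 19552 to 20671 in wild type and 19193 to 20103 in Ali35. Map2, a dendrite protein, had 1 dimmer probe called lower (-0.47 ± 0.11) and -0.57 ± 0.16 on its brightest, which was not called (adjusted p = 0.0789).

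Marker genes of blood and other non-neural cells differed in summed intensity between arrays. All 5 tested erythroid genes had lower values in Ali35 (median -0.95), and Alas2, the haem synthesis enzyme of red cells, was called: it read 79.8, 85.9, 43.1 and 34.9 in wild type and 20.5, 30.9, 26.8 and 22.6 in Ali35. Hba-a1, alpha globin, read 9081, 11629, 6533 and 7270.1 and 3453, 6849, 4211 and 3579.5 (adjusted p = 0.0532). The list's summed intensity, nearly all of it Hba-a1, was 6767 to 11983 in wild type and 3604 to 7062 in Ali35. Only Ali35 replicate 2 reached the wild-type range, and without it 2 of the 5 genes were called lower, against none without any 1 of 6 other arrays. The 5 choroid plexus genes summed to 4778 to 6094 in wild type and 3840 to 4262 in Ali35, without overlap, led by transthyretin, Ttr (5728, 4455, 4544 and 5022 in wild type and 3531, 3953, 3891 and 3934 in Ali35, adjusted p = 0.0776), and none was called (1 with an unadjusted p under 0.05). Microglia genes summed to 920 to 971 in wild type and 822 to 888 in Ali35 and endothelial genes to 1543 to 1602 and 1354 to 1527, also without overlap, with no called member of 8 and 10 (2 of each with an unadjusted p under 0.05). Groups also did not overlap on 15.7% of all probes tested, and a sum of intensities follows its brightest members. The 7 genes of mural cells and meninges summed to 4251 to 5065 and 4799 to 5367, with none called by its brightest probe (2 under 0.05). A dimmer probe of Acta2, in this list, was called higher (log2 0.82, adjusted p = 0.0223, limma), while its brightest had 0.57. The part that these cells have in the other changes was not tested.

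Across all probe pairs, agreement was loose. For the 1867 genes with several tested probes, the brightest probe was set against each other one, which gave 2446 pairs, and 57.6% of the pairs had changes of the same sign (r = 0.23 across pairs, which share arrays and are not independent). Among 885 pairs in which both probes had a mean intensity of at least 100, 60.5% had the same sign (r = 0.28). For the 158 genes with a called probe, 160 of the 223 other probes (71.7%) changed in the direction of the gene's lowest-p called probe, and for 47 genes another probe did so at an unadjusted p under 0.05. Of all 10922 tested probes, 2574 had an unadjusted p under 0.05 in either direction. That called probe was the brightest of the gene in 64 of the 158, and for 38 genes every other probe had the opposite sign.

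The difference between 2 probes of a gene was tested directly, by fitting genotype to the difference of their log2 values on each array. It was called for 62 of 2446 pairs (2.53%), in 62 genes, and 51 of these pairs had changes of opposite sign. Over all pairs 57.6% had the same sign. Picking pairs for a difference favours opposite signs, so the 51 is no separate result. Mier1, a corepressor that recruits histone deacetylases, had the lowest p: its dim probe read 20.5, 25.5, 18.6 and 14.7 in wild type and 42.9, 45.6, 45.9 and 42.2 in Ali35, and its brighter probe 111, 129, 101 and 102 and 101, 99.7, 103 and 126. The 2 changes, 1.15 ± 0.13 and -0.04 ± 0.12 on the log2 scale, differed by 1.19 ± 0.15 (brighter minus dimmer -1.19, adjusted p = 0.00759). It was the one pair with an adjusted p under 0.01.

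Lyrm2, a mitochondrial protein, had 2 probes that moved in opposite directions, with 129, 114, 122 and 136 in wild type and 74.4, 79.5, 59.6 and 101 in Ali35 on the dimmer and 208, 159.9, 173 and 179.6 and 240.2, 225, 234 and 211 on the brighter. The first was called lower and the second was not called (0.34 ± 0.10). Syf2, a splicing factor, showed the same arrangement, -0.60 ± 0.13 (called) against 0.30 ± 0.10, as did Ulk2, a kinase that starts autophagy, with -0.62 ± 0.11 (called) against 0.14 ± 0.10. For Ptpre the called probe had -1.60 ± 0.32 and the other, at 233 to 276 in wild type and 290.3 to 333 in Ali35, 0.26 ± 0.09. The actin nucleator gene Spire1 had 0.68 ± 0.17 on a dim probe and -0.08 ± 0.13 on the brightest. The adjusted p of the difference was 0.0349 for these 5 genes. These calls rest on few arrays: with 1 array left out, 1 to 43 pairs were called, fewest without wild-type replicate 1 or 2 or Ali35 replicate 1 or 2, and 1 with a floor of 8.

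**Figure D3:**
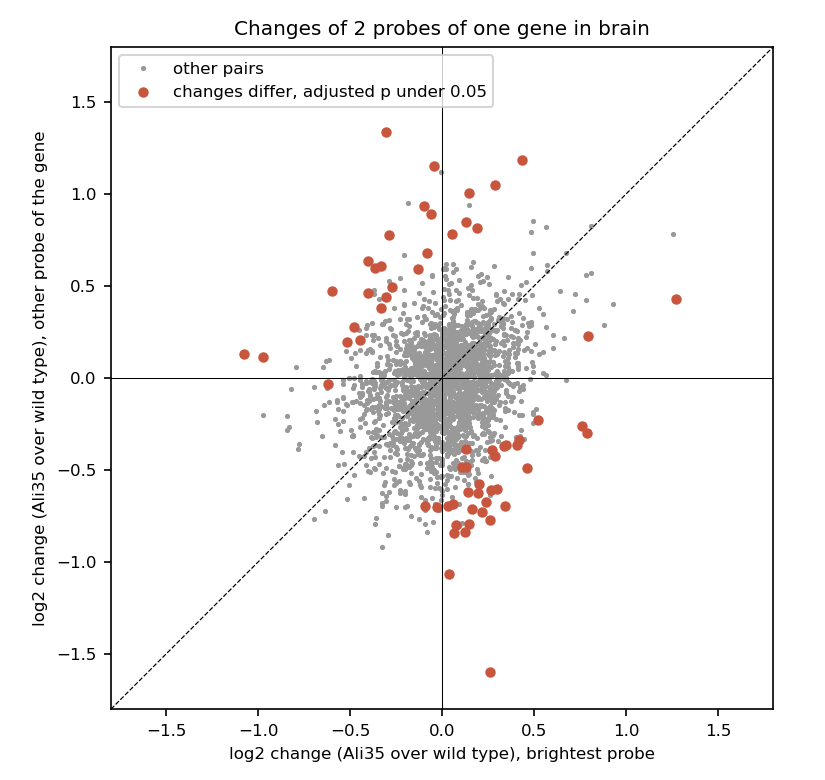
Each point is a pair of probes of 1 gene, with the log2 change (Ali35 over wild-type brain) of the gene's brightest probe on the horizontal axis and that of another probe on the vertical axis. The dashed line marks equal changes. The 62 coloured pairs differed at an adjusted p under 0.05, and 51 of them lie where the 2 changes have opposite signs, which picking pairs for a difference favours.

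The number of calls depended on every array. Without wild-type replicates 1 to 4 it was 52, 192, 105 and 43, and without Ali35 replicates 1 to 4 it was 114, 130, 174 and 245, against 398 with all 8. Of the 398 probes, 103 were called in none of the 8 reduced fits, 136 in exactly 1 and 33 in all 8, and none changed sign. The highest adjusted p came without wild-type replicate 1 for 294 of the 398 probes and without wild-type replicate 4 for 89. The probes called without wild-type replicate 1 or 4 were all among the 398, while 64 of the 245 called without Ali35 replicate 4 were not. Groups did not overlap for 396 of the 398 called probes, against 15.7% of all probes tested. The calls were made on these same values, so this separation follows largely from the calling and adds no support to it.

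**Figure D4:**
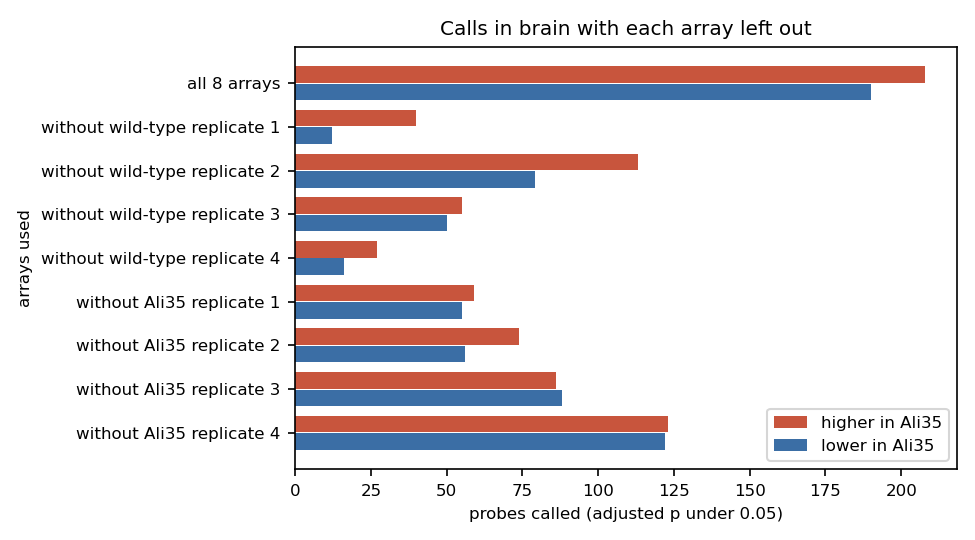
Bars give the number of probes called (adjusted p under 0.05) higher and lower in Ali35 brain, with all 8 arrays and with each array left out, on an axis that starts at 0. With all arrays 208 were higher and 190 lower, and without wild-type replicate 4 27 and 16.

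The pups were numbered 380 to 395 in the labels. The first principal component of the tested probes (33.3% of the variance) separated the genotypes. The second (19.4%) separated mice numbered 380 to 386 (Ali35 replicates 1 and 2, wild-type replicates 1 and 2), which had positive scores, from mice numbered 389 to 395, which had negative scores. Both sets of mice held 2 pups of each genotype, so the set could be added as a block, a choice made after the data were seen. With it 569 probes were called, all 398 among them, 296 higher and 273 lower. The labels do not say what the mouse numbers stand for.

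**Figure D5:**
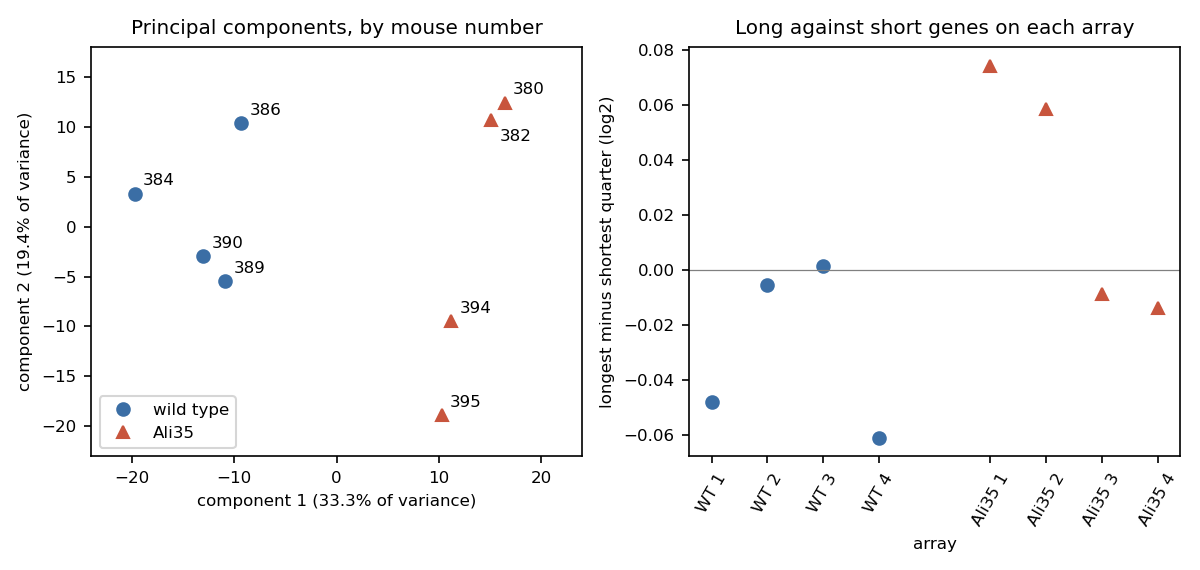
Left, the 8 brain arrays on the first 2 principal components of log2 intensity, with circles for wild type and triangles for Ali35, each labelled with its mouse number. Right, for each array, the median log2 intensity (relative to each gene's mean over the 8 arrays) of the longest genes (over 53.1 kb) minus that of the shortest (up to 9.45 kb). Genotypes separate on component 1, while on the right the 2 groups overlap, from -0.06 to 0.00 in wild type and from -0.01 to 0.07 in Ali35.

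Called genes differed in the length of the gene, a property that took no part in the tests. The 185 genes called higher had a median span of 40.5 kb from the first to the last base of the gene, the 174 called lower 16.8 kb and the 7479 not called 22.4 kb. The genes were put in 4 bins of 1959 or 1960 genes by span. By brightest probe, 3.16% of the 1960 longest genes (over 53.1 kb) were called higher and 1.02% lower, while of the 1960 shortest (up to 9.45 kb) 1.63% were called higher and 1.84% lower. The median log2 change was 0.05 in the longest bin and 0.01 in the shortest. Set per array, long genes minus short genes gave -0.05, -0.01, 0.00 and -0.06 on wild-type replicates 1 to 4 and 0.07, 0.06, -0.01 and -0.01 on Ali35 replicates 1 to 4, so Ali35 replicates 3 and 4 lay within the wild-type range. In each reduced fit the genes called higher had the longer median span, 39.9 to 51.6 kb against 7.35 to 19.9 kb. By brightness, 3.55%, 4.40%, 3.85% and 2.78% of the probes were called in 4 bins of mean intensity from the dimmest to the brightest.

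Promoters of 300 bases were found for 158 genes called higher, 151 called lower and 6094 not called. Their median GC content was 61.3%, 61.7% and 61.3%. The GC box (GGGCGG) occurred in 60.1%, 71.5% and 66.2% of them, against 35.9% of all 27020 promoters in the table, and the CCAAT box in 43.7%, 31.8% and 39.0% (37.9% of all). The cAMP response element TGACGTCA occurred in 0.633% of the promoters of genes called higher, 7.29% of those called lower and 3.35% of the others (1.88% of all), and the E-box CACGTG in 15.2%, 7.29% and 10.2% (7.24% of all). The CHR letters TTTGAA occurred in 13.3%, 6.62% and 11.0% (18.1% of all). TATAAA, the TATA box, occurred in 5.70%, 5.30% and 7.01% (14.2% of all) and AAGATGGC, the YY1 core, in 4.43%, 7.29% and 5.04% (2.88% of all), with all motifs searched on both strands. A match is a description of the letters and no test was made of these shares.

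Called probes were spread over the chromosomes, from 1.44% of those tested on chromosome 18 to 5.70% on chromosome 16, with 3.68% on chromosome 10, which carries Shc2. Within 1 Mb of Shc2 on either side, 45 probes of 41 genes were tested and 2 were called (4.44%). Fam174c was higher (log2 0.66 ± 0.09, adjusted p = 0.0144) and kept its call with each array left out, and C2cd4c was lower (-0.44 ± 0.09, adjusted p = 0.0345).

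The change in brain was set against that in bone for the 9225 probes kept in both tissues. The difference was called for 2255 of them (24.4%), 1067 with the higher value in brain and 1188 with the lower. In bone alone 3006 of 12223 probes were called (24.6%). One bone array stood apart: Ali35 bone replicate 1 read 221 and 167 on the 2 probes of Xist, the RNA of the inactive X chromosome, and -2.50 on the Y-linked gene Eif2s3y, against at most 11.7 for Xist and at least 409.6 for Eif2s3y on the other 7 bone arrays. Without it 2148 probes were called for the difference. Of the 398 probes called in brain, 294 were kept in bone, 168 of these were called for the difference, 33 were called in both tissues in the same direction and 31 in opposite directions. Being picked for their change in brain, these probes cannot be set against the 24.4%. Both changes stand on different mice, so they share no control. The 4 named probes of lowest p were Ttyh3 (-0.34 ± 0.10 in brain and 2.01 ± 0.17 in bone), Wiz, a zinc finger partner of the G9a methyltransferase (-0.05 ± 0.10 and 1.85 ± 0.14), Zc3h3 (-0.24 ± 0.12 and 1.93 ± 0.15) and Fhod1, a formin (-0.65 ± 0.11 and 0.98 ± 0.11). For the first 3 of these the bone change was called and the brain value was not.

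Among the genes with at least 2 probes called in one direction, the dim called probe of Usp1, which differed from the gene's brightest, had a difference between the tissues of 1.41 ± 0.31 (adjusted p = 0.00438). The brighter probe of Mrpl1 differed by 1.04 ± 0.16 and Slc4a3 by -1.19 ± 0.21. Mrpl1 was called higher in brain and lower in bone (-0.56 ± 0.11), and Slc4a3 lower in brain and higher in bone (0.67 ± 0.19). B4galt3 and Babam2 were likewise lower in brain and higher in bone, with differences of -1.18 ± 0.16 and -1.15 ± 0.14. Lamtor2 and Klhdc3 fell in brain and had bone changes of 0.00 ± 0.12 and 0.00 ± 0.10. The called probes of Plpp3 and Actb, which other probes of these genes did not match in brain, were higher in both tissues, with bone changes of 0.55 ± 0.11 and 0.38 ± 0.11, and their differences were not called (adjusted p = 0.695 and 0.6).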

How the data were processed

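Per the labels, biotinylated cRNA made from total RNA of bone and brain was hybridized to bead arrays. The values deposited by the authors are linear intensity values, already background-subtracted (values below 0 occur). The 8 brain arrays have nearly equal quartiles, so they were taken as normalized at least among themselves. The submitters' processing notes name GenomeStudio 2011.1, and how the values were normalized is not given in the sources used here. The non-normalized table that came with them was not used, since its 32 value columns carry running numbers that match no label.

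Of 25697 probes, 23978 carried 1 gene symbol in GEO's platform annotation, 0 several and 1719 none, and symbols were updated through Entrez identifiers (23962 matched) with a RefSeq table of GRCm38.p6, which also gave gene spans and promoters. Values were floored at 16 and log2 values fitted with limma 3.58.1 (lmFit and eBayes, 6 residual degrees of freedom, Benjamini-Hochberg over all tested probes, two-sided) in R 4.3.3. Errors of intensities are SD over 4 mice and errors of log2 changes are moderated SE. Signal is not compared between probes. The number of arrays limits the precision. On simulated data of this comparison (10922 probes, 200 of them changed), 87% of the 2-fold and 45% of the 1.41-fold changes were called, and 6.38% of 141 calls were false.

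Members, gene lists and tests were chosen with earlier results of these data known. Genes were named by rule: those with at least 2 probes called one way, in each direction the 8 calls steadiest to leaving out an array, the 4 brightest and the 4 largest, the 6 with the lowest p for a difference between probes, up to 4 of lowest p in each list, the 4 of lowest p for brain against bone, and Xist with 4 Y-linked genes. Other names were chosen after their values were seen. Replicate numbers were not taken as pairing, since the deviations of same-numbered arrays correlated at 0.01 to 0.14 and not all above 0.1. Figures were drawn with matplotlib 3.10.9 under Python 3.11.15.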

Additional observations from a re-analysis of the deposited data

Results flagged for a closer look

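Chance alone sets apart about 1 in 20 groups of 4 by the test for a single outlying array, and 159 groups were tested. It was passed by 4. Pheta1 read 78.5 on wild-type replicate 3 and 94.7 to 98.3 on the other wild-type arrays, and Isl1 read 153 on wild-type replicate 1 and 187 to 193 on the others. On Ali35 replicate 1, Sult4a1 read 1010 (1370 to 1440 on the others) and Ndufb3 234 (283 to 294).

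For 33 named genes the change in brain differed from that in bone at an adjusted p under 0.05 (limma interaction, 24.4% of 9225 probes), with tissue and age changing together. These genes were named for their changes in brain or, for the last 4 below, by this same test. The count therefore cannot be set against the share over all probes. The differences, brain minus bone on the log2 scale, follow. Of genes higher in Ali35 brain, Mllt3 had 1.64, Mier1 1.59, Usp1 1.41, Bach1 1.29, Ezh2 1.28, Btbd3 1.07, Stx3 1.07, Mrpl1 1.04, Psma7 0.887, Pde1a 0.803, Tmem223 0.729, Akap9 0.587 and Uqcr10 0.582. Of genes lower in Ali35 brain, Ptpre had -1.26, Tkt -1.2, Lamtor2 -1.19, Slc4a3 -1.19, B4galt3 -1.18, Alas2 -1.18, Klhdc3 -1.17, Babam2 -1.15, Car14 -0.966, Pheta1 -0.873, Copg1 -0.779, Srsf5 -0.707, Rps21 -0.651, Cdca3 -0.625, Glrx2 -0.597 and Calm3 -0.465. Of the 4 genes of lowest p, Ttyh3 had -2.35, Zc3h3 -2.17, Wiz -1.9 and Fhod1 -1.63.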

How the results depend on the processing

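No called change of a named probe reversed under any alternative run. Scaling mattered little, with 401 probes called after quantile normalization and 411 with equal 75th percentiles, against 398, and 392 and 396 of the 398 remained. The low end and the variance model mattered more. A floor of 8 gave 248 probes called (137 higher, 111 lower), 233 of them among the 398, 4 genes with at least 2 probes called in one direction and 1 pair of differing probes, a floor of 32 gave 328 probes, of which 198 were among the 398, and 5 such genes, and no filter on dim probes gave 19 (14 and 5), 0 genes and 23 pairs. A filter asking for 16 on all 8 arrays gave 407 probes (347 of the 398) and 41 pairs. A variance trend with robust eBayes gave 850 probes (428 and 422, with 368 of the 398) and 30 genes. At an adjusted p under 0.1 the counts were 1081 probes (548 and 533), 38 genes and 181 pairs, and under 0.01 they were 8 probes (7 and 1), 0 genes and 1 pair. Testing only the brightest probe of each gene gave 259 calls. Leaving out 1 brain array gave 43 to 245 probes called (27 to 123 higher, 12 to 122 lower), 0 to 4 genes and 1 to 43 pairs, each of these fits having 1 array fewer. The count for brain against bone stayed between 1746 and 2514 under all alternatives at the same threshold. The cause of the other shifts was not tested.

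Replicate numbers are shared between the groups, and with the replicate number as a block (replicate block) 206 probes were called (103 higher and 103 lower, 159 of them among the 398), with 3 such genes, 48 pairs and 2078 calls for brain against bone. With the 4 lower against the 4 higher mouse numbers as a block, chosen after seeing the data, 16 genes and 86 pairs were called.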

Other observations

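A few genes missed a second called probe narrowly, and are named here after their values were seen. Ppm1l, a protein phosphatase, rose by log2 0.60 ± 0.14 SE on one probe and had 0.49 ± 0.12 on the other (adjusted p = 0.0501, limma). Lrif1, a nuclear protein that binds HP1, rose by 0.68 ± 0.15 and had 0.67 ± 0.18 (adjusted p = 0.0661). Pex11a, a factor of peroxisome division, rose by 0.45 ± 0.11 and had 0.42 ± 0.11. Cdh8, a cadherin of cortical neurons, rose by 0.47 ± 0.10 on 1 of 3 tested probes, and the other probes had 0.34 ± 0.09 and 0.24 ± 0.11.

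Of the 398 called probes, 51 had at least 1 array below 16 and 9 had a whole group below it, so their sizes depend on the floor. The 9 passed the filter only through the other group. Skeletal muscle markers were nearly absent, with 2 of 10 genes tested, neither of them called, and a summed intensity of 176 to 219 in wild type and 189 to 315 in Ali35.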
